A study of Mus musculus with 12 samples.

Results

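The 5 genes described here, Cxcl10, Ccl5, Cxcl3, Spp1 and Areg, encode secreted proteins of the mixture that senescent cells release. They were taken by name from a table of 13404 genes, of which 11486 had a count in at least 1 library. All 5 were among the 9495 genes that passed the low-count filter and were tested. RNA of spleen T cells from C57BL/6 mice was sequenced after poly(A) enrichment. Regulatory T cells (Treg, which restrain immune responses) were sorted as CD4+CD25+, and conventional T cells (Tconv) as CD4+. Each cell type came from aged wild-type mice of more than 18 months, from mice of 2 months labelled Dcaf1-deficient, and from young wild-type mice of 2 months. This gave 6 groups of 2 libraries, named here by group and by the replicate number of their titles. The study's title names Dcaf1, reactive oxygen species and Treg senescence. The allele and the driver behind the deficiency, and whether the 2 libraries of a group came from separate mice, are not given in the sources used here. P-values therefore measure the spread between these libraries only, which may be technical.

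Cells that have stopped dividing for good often go on secreting chemokines, growth factors and matrix proteins, a mixture known as the senescence-associated secretory phenotype. Cxcl10 is an interferon-induced chemokine that draws activated T cells through the receptor Cxcr3. Ccl5 is a chemokine of effector and memory T cells, and Cxcl3 draws neutrophils through Cxcr2. Spp1 encodes osteopontin, a matrix protein and cytokine that binds Cd44 and integrins. Areg encodes amphiregulin, a ligand of the receptor Egfr that tissue Treg release in repair.

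Of the members, 4 lie on chromosome 5 and Ccl5 lies on chromosome 11. In GENCODE M21 on GRCm38, the build called mm10 in the processing notes, they are the protein-coding genes Cxcl3 (chr5:90786103-90789600, plus strand), Areg (chr5:91139599-91148432, plus strand), Cxcl10 (chr5:92346638-92348889, minus strand), Spp1 (chr5:104435118-104441050, plus strand) and Ccl5 (chr11:83525778-83530518, minus strand). Counts were summed over the transcripts of each gene. The 250 bases before the transcription start are shown for the 4 of 5 members matched in the RefSeq table of GRCm38.p6, because these members were all higher in aged Tconv and factors that bind such motifs are among the regulators tested. The windows are chr5:92348890-92349139 on the minus strand for Cxcl10, and on the plus strand chr5:90785851-90786100 for Cxcl3, chr5:104434861-104435110 for Spp1 and chr5:91139349-91139598 for Areg. Each reads 5′ to 3′ towards the gene. Capitals mark matches, on either strand, to a kappa B consensus, to the AP-1 motif TGANTCA, to the cAMP response element (CRE) TGACGTCA, to the interferon response core (ISRE core; GAAA, any 2 bases, GAAA) or to the TATA box TATAAA.
Cxcl10: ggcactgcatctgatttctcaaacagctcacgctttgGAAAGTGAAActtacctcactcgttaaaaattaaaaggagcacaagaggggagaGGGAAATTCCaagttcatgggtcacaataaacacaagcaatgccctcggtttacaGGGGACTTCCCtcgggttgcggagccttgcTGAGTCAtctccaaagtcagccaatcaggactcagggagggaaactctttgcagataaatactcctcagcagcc
Cxcl3: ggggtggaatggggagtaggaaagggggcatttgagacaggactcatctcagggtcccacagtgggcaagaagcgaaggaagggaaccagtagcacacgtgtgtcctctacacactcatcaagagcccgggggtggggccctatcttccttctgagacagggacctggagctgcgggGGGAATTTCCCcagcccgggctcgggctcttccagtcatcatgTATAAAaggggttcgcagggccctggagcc
Spp1: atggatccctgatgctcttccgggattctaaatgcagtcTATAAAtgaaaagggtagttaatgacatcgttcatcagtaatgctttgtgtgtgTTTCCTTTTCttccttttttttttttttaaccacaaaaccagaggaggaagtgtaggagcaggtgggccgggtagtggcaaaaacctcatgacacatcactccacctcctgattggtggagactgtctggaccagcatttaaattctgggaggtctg
Areg: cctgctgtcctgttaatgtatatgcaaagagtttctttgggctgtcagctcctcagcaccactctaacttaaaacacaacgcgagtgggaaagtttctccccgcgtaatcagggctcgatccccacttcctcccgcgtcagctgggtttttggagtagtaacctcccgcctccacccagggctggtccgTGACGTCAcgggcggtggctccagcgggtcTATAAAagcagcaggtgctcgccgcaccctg
Cxcl10 held kappa B matches 159 to 150 bases before the start and, as an overlapping pair, 104 to 94 bases before it. It also held an AP-1 match at 74 to 68 and an ISRE core match at 213 to 204 bases. Cxcl3 held an overlapping pair of kappa B matches at 73 to 63 bases and a TATA box at 30 to 25. Spp1, whose first of 2 starts in the table is shown, held an ISRE core match at 157 to 148 bases and TATAAA at 211 to 206. Areg held the CRE at 61 to 54 bases and a TATA box at 31 to 26. Of 32851 windows of the same length, 7.25% held the kappa B consensus, 6.75% the AP-1 motif, 1.55% the CRE, 2.98% the ISRE core and 12.4% the TATA box. A match describes these letters and is no evidence of a bound factor.

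Total estimated counts ran between 18358477 and 26852448 per library. Levels are given in CPM, counts per 1000000 of the scaled library size, and 3 counts over a group, the lowest level treated as measurable, equal 0.0574 to 0.0768 CPM. Vprbp, the name of Dcaf1 in the table, was at 102 and 101 CPM in Treg labelled Dcaf1-deficient, against 144 and 128 CPM in young Treg. In Tconv it had 132 and 132 CPM in the labelled libraries, against 147 and 144 CPM in young Tconv, and a whole-gene count does not check a deletion of part of the gene. Aged libraries were also below young ones, at 105 and 127 CPM in Treg and 117 and 90.5 CPM in Tconv, so that low Vprbp was also seen outside the labelled libraries. The T cell genes Cd4 and Cd3e were present in every library, and within each condition Foxp3 and Il2ra were higher in both Treg libraries than in both Tconv libraries. Foxp3 also reached 334 and 675 CPM in aged Tconv, against 47.7 and 78.4 CPM in young Tconv. Xist, transcribed from the inactive X chromosome of females, was at 1263 to 2018 CPM in aged Treg 2, aged Tconv 2, Treg labelled Dcaf1-deficient 2 and both Tconv libraries labelled Dcaf1-deficient, and at most 2.94 CPM in the others. Aged Treg 2 and aged Tconv 2 alone also carry the tag L3 in their titles, whose meaning is not stated. Aged Treg 1 and young Treg 2 stood apart from their partners in transcripts of other blood cells, which are given beside the Treg results. Over all genes tested, the log2 CPM of aged Treg 1 correlated at 0.993 with Treg labelled Dcaf1-deficient 1 and at 0.914 with aged Treg 2, while the 2 labelled Treg libraries correlated at 0.984 with each other (Pearson's r across genes, which are not independent). Aged Treg 1 thus lay nearer a labelled library than its partner, and whether it matches its label was not tested. For some members, tests that rest on it are also given without it. Receptors, relatives, regulators, gene lists and neighbouring genes in aged Treg are given with it only. Among pairs within a group, the 2 Tconv libraries labelled Dcaf1-deficient were the closest. The mean chi-square between them was 5.70 per gene, against 28.8 to 327 in the other 5 groups. Their log2 CPM correlated at 0.992, no higher than the 0.993 between aged Treg 1 and Treg labelled Dcaf1-deficient 1. The 2 labelled Tconv libraries differed beyond sampling noise and were kept as 2 libraries.

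**Figure D1:**
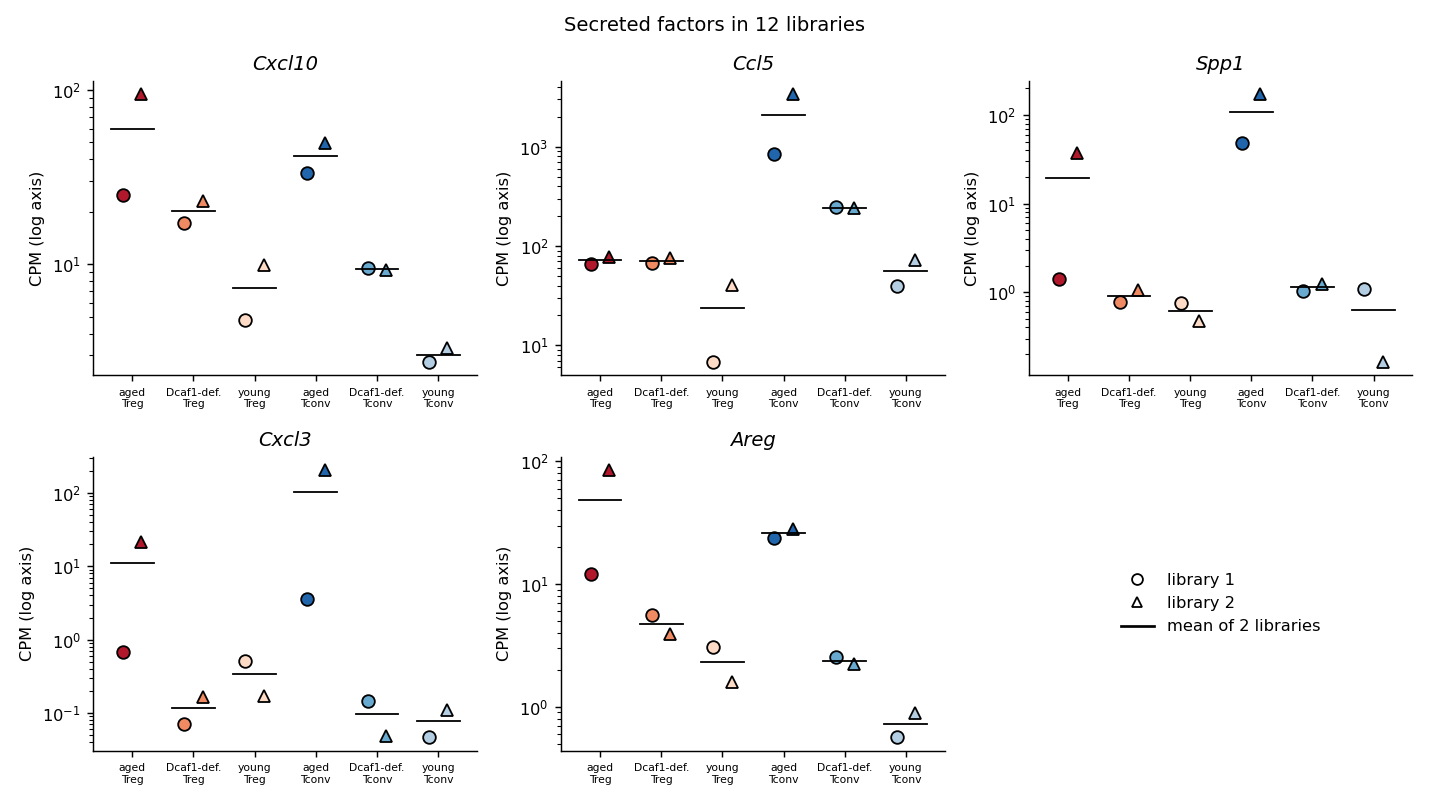
Level of each secreted factor in the 12 libraries, in CPM on a log axis, with the groups in the same order in each panel. Circles and triangles are libraries 1 and 2 and the bar is their mean; the aged Tconv libraries stand above the young Tconv libraries for all 5 genes, and for Cxcl3 the aged libraries lie far apart.

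Across the 12 libraries Cxcl3 had the widest span and Cxcl10 the narrowest. Cxcl3 reached 204 CPM in aged Tconv 2, which was 4349 times its lowest level, and Cxcl10 reached 94.2 CPM in aged Treg 2, which was 34.0 times its lowest. The 2 libraries with the tag L3 held 97.6% of the summed CPM of Cxcl3, 78.9% of that of Spp1, 67.1% for Ccl5, 66.9% for Areg and 51.1% for Cxcl10. Ranked by mean, both aged groups led for Cxcl10, Spp1, Cxcl3 and Areg. Ccl5 differed: Tconv libraries labelled Dcaf1-deficient stood second to aged Tconv, and above aged Treg. In the order of Cxcl10 and Areg, aged Treg and aged Tconv overlapped, as did Tconv labelled Dcaf1-deficient and young Treg. In the order of Ccl5, the 4 lowest groups, from aged Treg down to young Treg, each overlapped the next. For Spp1 and Cxcl3 the groups without aged mice all stood near or under 1 CPM, and most neighbours among them overlapped.

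The first comparison, of aged with young Tconv, asked what age changed in conventional cells. All 5 secreted factors rose in aged Tconv in the edgeR test, where 6.38% of all genes tested were called higher and 8.86% were called in either direction (adjusted p under 0.05). In all 5 both aged libraries lay above both young libraries, which held for 29.9% of all genes tested. In bulk libraries such as these, more transcript per cell and more cells of a producing type cannot be told apart.

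Among the chemokines, Cxcl10 was at 33.4 and 49.7 CPM in aged Tconv, against 2.77 and 3.30 CPM in young Tconv. Its libraries lay close together within each age, with means of 41.5 ± 11.5 CPM in aged and 3.03 ± 0.376 CPM in young Tconv (SD, n = 2 each). The log2 fold change was 3.77 (edgeR adjusted p 0.0222, SE 0.65). Ccl5 stood at 838 and 3375 CPM in aged Tconv, against 39.7 and 72.2 CPM in young Tconv. Aged Tconv 2 was the higher library by 4.03 times, and the lower aged library still exceeded both young ones. The log2 fold change was 5.24 (edgeR adjusted p 0.0244, SE 0.96). Cxcl3 was at 3.55 and 204 CPM in aged Tconv, against 0.0469 and 0.110 CPM in young Tconv. The aged libraries differed 57.4-fold, and the young ones held 3 counts in all, so that the fitted log2 fold change of 10.30 (edgeR adjusted p 0.0498, SE 2.62) depends on how such low counts are fitted. By counts scaled to library size, aged Tconv held 1470 times as much Cxcl3 as young Tconv, with a 95% interval of 503 to 7129 that covers counting error only.

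Spp1, the matrix protein gene, was at 47.9 and 171 CPM in aged Tconv, against 1.08 and 0.165 CPM in young Tconv. Both aged libraries were far above the young ones (log2 fold change 7.42, edgeR adjusted p 0.0364, SE 1.65). Areg, the growth factor gene, was at 23.7 and 28.2 CPM in aged Tconv, against 0.563 and 0.880 CPM in young Tconv. It was the most even of the 5 between the aged libraries, with means of 25.97 ± 3.19 CPM in aged and 0.722 ± 0.224 CPM in young Tconv (SD, n = 2 each), and its log2 fold change was 5.17 (edgeR adjusted p 0.0227, SE 0.91).

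The calls rested on few libraries. The edgeR calls of all 5 were lost without young Tconv 1, young Tconv 2 or aged Tconv 2, and kept without aged Tconv 1. Each of these fits leaves 1 library in a group. Calls over all genes moved the same way, becoming fewer where the members lost theirs and more without aged Tconv 1. Without aged Tconv 2, the log2 fold changes were 3.46 for Cxcl10, 3.90 for Ccl5, 6.23 for Spp1, 5.43 for Cxcl3 and 5.03 for Areg. With both L3 libraries left out 4 were called and Ccl5 had an adjusted p of 0.0508, beside 8.43% of all genes. Both omissions of aged Tconv 2 leave aged Tconv 1 alone, which is then assumed to vary like the libraries of the other groups, and 4 calls in one fit and 0 in the other came from the same aged library. With a term for libraries rich in Xist 3 were called, beside 3.19% of all genes, and Ccl5 and Spp1 had edgeR adjusted p of 0.0545 and 0.0507.

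Transcripts of other cell types moved with age in Tconv for some lists. The 4 Treg markers summed to 2129 and 3151 CPM in aged Tconv, against 336 and 409 CPM in young Tconv, without overlap. EdgeR called 3 of the 4 higher, but Il2ra, which encodes the CD25 used in the sort, overlapped at 43.1 and 29.7 CPM in aged Tconv, against 31.8 and 63.2 CPM in young Tconv. The 6 macrophage markers in the table, of 9, summed to 68.3 and 75.5 CPM in aged Tconv, against 17.4 and 210 CPM in young Tconv, and overlapped. Of the 3 basophil or mast cell markers in the table, of 4, 2 had no count in either aged Tconv library, and the sum was 2.17 and 0.0475 CPM in aged Tconv, against 1.78 and 3.58 CPM in young Tconv. The 2 of 7 CD8 T cell or NK cell markers in the table summed to 18.7 and 45.7 CPM in aged Tconv, against 24.6 and 34.8 CPM in young Tconv. The 3 of 4 dendritic cell markers in the table summed to 60.3 and 19.8 CPM in aged Tconv, against 86.9 and 250 CPM in young Tconv, and lay lower in aged Tconv without overlap. The sum of the 4 stroma markers, most of which was the endothelial gene Pecam1, also lay lower, at 228 and 177 CPM in aged Tconv, against 327 and 363 CPM in young Tconv. Of the 3 stroma markers that were tested, Pecam1 was lower and 2 were higher, 1 of them called by edgeR. Col1a1, named after its values were seen, was at 3.83 and 19.2 CPM in aged Tconv, against 0.422 and 0.165 CPM in young Tconv. The 6 of 7 neutrophil markers in the table summed to 2.89 and 5.70 CPM in aged Tconv, against 0.188 and 2.92 CPM in young Tconv. The part of these transcripts in the secreted factors was not tested.

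The same question was asked of regulatory cells, with aged set against young Treg. All 5 secreted factors lay above young Treg in both aged libraries, as did 20.2% of all genes tested, but edgeR called 0 of the 5 and 0% of all genes. At an unadjusted p under 0.05 edgeR gave 4 of the 5 members and 1697 genes, DESeq2 called 4 members and 722 genes, and limma called 0 members and 2 genes.

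Cxcl10 was at 24.8 and 94.2 CPM in aged Treg, against 4.80 and 9.87 CPM in young Treg. The groups did not overlap, and aged Treg 2 was the higher aged library (log2 fold change 3.02, edgeR adjusted p 0.126, SE 0.62). Ccl5 was at 66.4 and 78.0 CPM in aged Treg, against 6.87 and 40.7 CPM in young Treg. Here the aged libraries were alike and the young ones differed 5.92-fold (log2 fold change 1.60, edgeR adjusted p 0.353, SE 0.83). Cxcl3 was at 0.681 and 21.7 CPM in aged Treg, against 0.518 and 0.173 CPM in young Treg. Aged Treg 1 was barely above the young libraries and aged Treg 2 far above them (log2 fold change 5.003, edgeR adjusted p 0.259, SE 2.05). The count ratio of aged to young Treg was 30.03, with a 95% interval of 18.0 to 54.1 for counting error.

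Spp1 showed the same split between the aged libraries, with 1.40 and 37.5 CPM in aged Treg, against 0.753 and 0.476 CPM in young Treg. The log2 fold change was 4.97 (edgeR adjusted p 0.181, SE 1.495). Areg was at 12.04 and 85.0 CPM in aged Treg, against 3.06 and 1.60 CPM in young Treg. Both aged libraries stood clearly above the young ones (log2 fold change 4.38, edgeR adjusted p 0.126, SE 0.86).

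Which libraries enter decides the calls in Treg. Without aged Treg 1, edgeR called Cxcl10, Spp1 and Areg, with log2 fold changes of 3.68, 5.92 and 5.19 that then rest on aged Treg 2 alone, and it called 4.44% of all genes. Without aged Treg 2 the log2 fold changes were 1.76 for Cxcl10, 1.19 for Spp1, 0.98 for Cxcl3 and 2.37 for Areg, and 0 of the 5 were called. With young Treg 2 and aged Treg 1 both left out, Cxcl10 and Areg were called, at log2 fold changes of 4.26 and 4.76, beside 2.5% of all genes.

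Macrophage markers summed to 7868 and 553 CPM in aged Treg, against 110 and 3106 CPM in young Treg. C1qa, a complement gene of macrophages and 1 of these markers, was at 567 and 96.2 CPM in aged Treg, against 9.79 and 239 CPM in young Treg. Erythroid markers, 4 of 7 in the table, summed to 4232 and 129 CPM in aged Treg, against 17.6 and 1425 CPM in young Treg. Spp1, Cxcl3, Areg and Cxcl10 were highest in aged Treg 2, which was the aged Treg library with the fewer macrophage and erythroid transcripts. Ccl5 ran with the macrophage sum in young Treg, where young Treg 2 had more of both than young Treg 1. In aged Treg it did not, at 66.4 CPM in aged Treg 1 and 78.0 CPM in aged Treg 2. The part of these transcripts in the Treg differences was not tested.

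**Figure D2:**
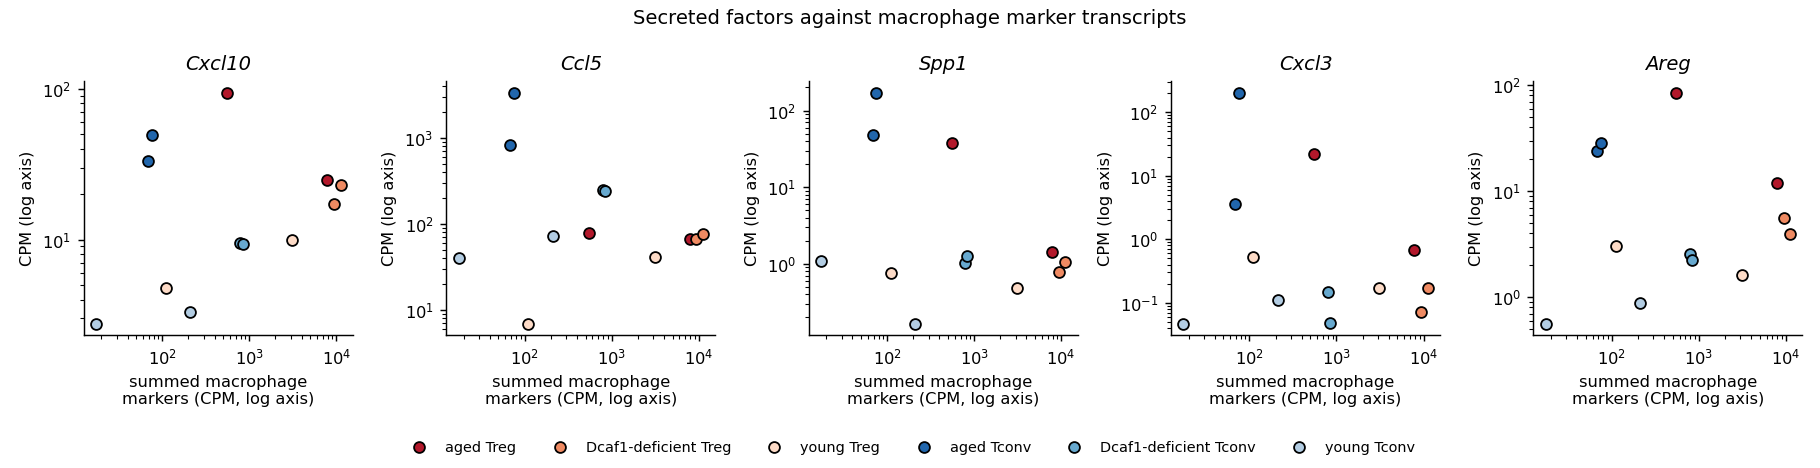
Level of each secreted factor (vertical, CPM, log axis) against the summed level of the 6 macrophage markers (horizontal, CPM, log axis), 1 point per library. The libraries with the highest Cxcl3, aged Tconv 2 and aged Treg 2, hold 75.5 and 553 CPM of macrophage transcripts, below the 9393 and 11211 CPM in Treg labelled Dcaf1-deficient.

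The difference between the age effects in Treg and in Tconv was tested for each gene. For Ccl5 the age effect was smaller in Treg than in Tconv, with a difference of -3.63 on the log2 scale (SE 1.18), which edgeR did not call (adjusted p 0.591). DESeq2 called this difference of Ccl5 at an adjusted p of 0.0478, alone among the 5. For the other members the differences were -0.75 for Cxcl10, -2.45 for Spp1, -5.30 for Cxcl3 and -0.79 for Areg, with edgeR adjusted p between 0.886 and 0.974. That of Cxcl3 rests on 15 counts in young Treg and 3 in young Tconv. It ran from -9.32 to -0.43 with 1 library left out. Without aged Treg 1 the difference was -3.52 for Ccl5 and edgeR again called 0 of the 5. EdgeR called 0% of all genes for this difference, and at an unadjusted p under 0.05 it gave 1 of the 5 members and 615 genes, while DESeq2 called 134 genes and limma 1.

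The libraries labelled Dcaf1-deficient were set against young libraries of the same age, first in Treg. Of the 5 members, 4 lay above young Treg in both labelled libraries and Cxcl3 lay below, against 35.2% and 36.9% of all genes tested that lay wholly above or below. EdgeR called 0 of the 5 and 0% of all genes. At an unadjusted p under 0.05 it gave 1 member and 2359 genes, DESeq2 called 0 members and 1185 genes, and limma called 0 and 0.

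Cxcl10 was at 17.3 and 22.9 CPM in Treg labelled Dcaf1-deficient, against 4.80 and 9.87 CPM in young Treg. The labelled libraries were close together and above both young ones (log2 fold change 1.45, edgeR adjusted p 0.184, SE 0.59). Ccl5 had 67.1 and 76.0 CPM in the labelled libraries, against 6.87 and 40.7 CPM in young Treg. As in aged Treg, the spread lay in the young libraries (log2 fold change 1.59, edgeR adjusted p 0.257, SE 0.83). Areg had 5.56 and 3.90 CPM in the labelled libraries, against 3.06 and 1.60 CPM in young Treg, a log2 fold change of 1.02 (edgeR adjusted p 0.400, SE 0.77).

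The 2 members that were near absent from young Treg stayed so in the labelled libraries. Spp1 was at 0.774 and 1.05 CPM in Treg labelled Dcaf1-deficient, against 0.753 and 0.476 CPM in young Treg. Its libraries nearly met (log2 fold change 0.56, edgeR adjusted p 0.804, SE 1.41). Cxcl3 had 6 counts over both labelled libraries and 15 counts over both young ones, or 0.0703 and 0.168 CPM against 0.518 and 0.173 CPM. That difference, a log2 fold change of -1.51 (edgeR adjusted p 0.690, SE 2.38), was not detectable at this depth.

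Macrophage markers summed to 9393 and 11211 CPM in Treg labelled Dcaf1-deficient, against 110 and 3106 CPM in young Treg, and the groups did not overlap. Erythroid markers summed to 4982 and 11455 CPM in the labelled libraries, against 17.6 and 1425 CPM in young Treg. The part of these transcripts in the levels of Cxcl10 and Ccl5 was not tested. Young Treg 2, with more macrophage transcripts than young Treg 1, also had the higher Cxcl10 and Ccl5. In aged Treg the order was reversed, and aged Treg 2, with fewer macrophage transcripts than aged Treg 1, had the higher Cxcl10 and Ccl5. With young Treg 2 and aged Treg 1 left out, edgeR called Cxcl10 and Ccl5, with log2 fold changes of 2.07 and 3.38 (adjusted p 0.0142 and 0.0433) that then rest on young Treg 1 alone. Of all genes in that fit, 22.8% were called.

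The same comparison was made in Tconv. Xist was at 1321 and 1339 CPM in Tconv labelled Dcaf1-deficient, against 2.39 and 2.64 CPM in young Tconv, so that the label and the sex of the mice cannot be told apart there. Cxcl10 had 9.51 and 9.31 CPM in the labelled libraries, against 2.77 and 3.30 CPM in young Tconv. Ccl5 had 248 and 241 CPM in the labelled libraries, against 39.7 and 72.2 CPM in young Tconv. Areg had 2.54 and 2.22 CPM in the labelled libraries, against 0.563 and 0.880 CPM in young Tconv. In these 3 members both labelled libraries stood above both young ones, as did 34.2% of all genes tested. The log2 fold changes were 1.63 for Cxcl10 (edgeR adjusted p 0.461, SE 0.60), 2.13 for Ccl5 (edgeR adjusted p 0.469, SE 0.84) and 1.72 for Areg (edgeR adjusted p 0.516, SE 0.82). Spp1, at 1.02 and 1.25 CPM in the labelled libraries, against 1.08 and 0.165 CPM in young Tconv, overlapped. Cxcl3 had 4 counts in the labelled libraries and 3 in young Tconv, too few for a fold change.

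EdgeR called 0 of the 5 and 0% of all genes in that comparison. At an unadjusted p under 0.05 it gave 2 members and 954 genes, DESeq2 called 0 members and 232 genes, and limma called 0 members and 11 genes. The macrophage markers summed to 792 and 838 CPM in the labelled Tconv libraries, against 17.4 and 210 CPM in young Tconv, and the erythroid markers to 1441 and 1432 CPM, against 5.82 and 106 CPM. Neither sum overlapped, and their part in these levels was not tested. When the effect of the label in Treg was set against that in Tconv, the differences of Cxcl10, Ccl5, Spp1 and Areg ran between -0.70 and -0.18 on the log2 scale, and that of Cxcl3 rests on too few counts to be given. EdgeR called 0 of these 5 differences and 0% over all genes, with 0 members and 260 genes at an unadjusted p under 0.05. DESeq2 called 0 members and 1 gene for that difference, and limma 0 and 0.

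**Figure D3:**
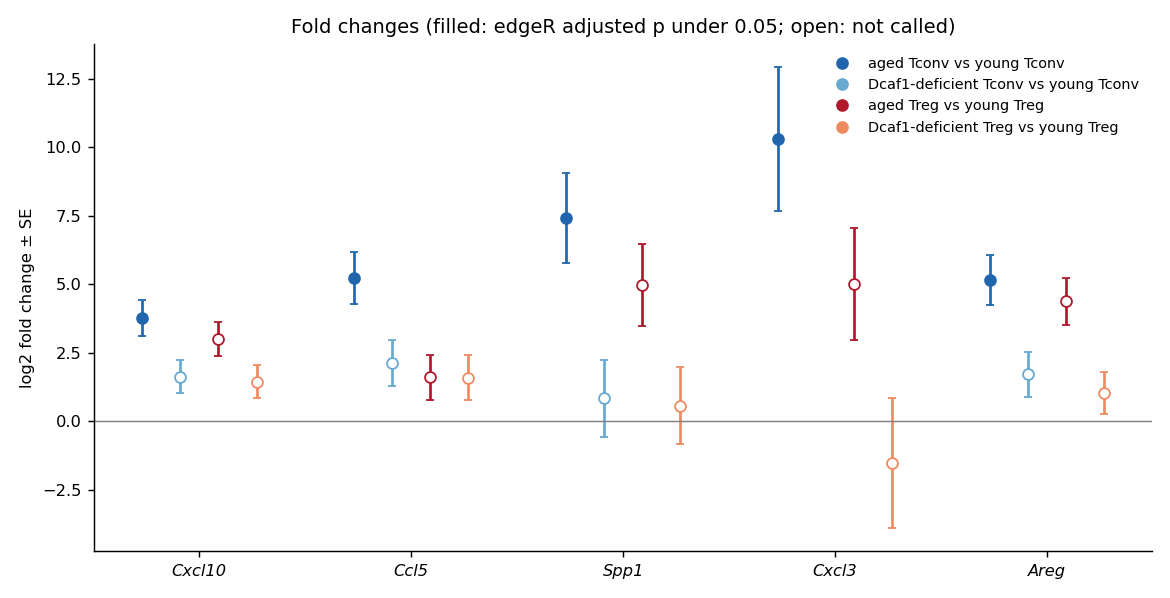
Log2 fold change of each secreted factor in 4 comparisons with young libraries of the same cell type, with the standard error of the 12-library fit as bars; filled points passed the edgeR threshold and open points did not. The filled points are the 5 aged Tconv comparisons; Cxcl3 in Tconv labelled Dcaf1-deficient is not drawn because it rests on 4 and 3 counts.

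The age and label comparisons share their young libraries, so that a high or low young library moves both. Set side by side, the log2 fold changes of Ccl5 in Treg were 1.60 with age and 1.59 with the label, and those of Areg were 4.38 and 1.02. Treg labelled Dcaf1-deficient were therefore also compared with aged Treg directly. Ccl5, at 67.1 and 76.0 CPM in the labelled libraries, against 66.4 and 78.0 CPM in aged Treg, gave a log2 fold change of -0.01 (edgeR adjusted p 0.994, SE 0.81). The other 4 members lay below aged Treg in both labelled libraries, as did 22.8% of all genes tested. Their log2 fold changes were -1.57 for Cxcl10 (SE 0.59), -4.41 for Spp1 (SE 1.44), -6.52 for Cxcl3 (SE 2.27) and -3.36 for Areg (SE 0.81), each with an edgeR adjusted p of 0.635.

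EdgeR called 0 of the 5 and 0% of all genes in this comparison of the labelled with the aged libraries, with 4 members and 702 genes at an unadjusted p under 0.05. DESeq2 called Spp1, Cxcl3 and Areg among 65 genes, and limma called 0 members and 0 genes. Without aged Treg 1, edgeR called Cxcl10, Spp1 and Areg, all lower in the labelled libraries, with 10.1% of all genes called and aged Treg 2 as the only aged library. Without aged Treg 2 it called 0. Without aged Treg 2 the log2 fold changes were -0.31 for Cxcl10, -0.62 for Spp1, -2.50 for Cxcl3 and -1.35 for Areg. Aged Treg 1 stood at 7868 CPM of macrophage markers, nearer the 9393 and 11211 CPM of the labelled libraries than aged Treg 2 at 553 CPM.

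Treg and Tconv were compared within each condition. In aged mice Ccl5 lay below in Treg, at 66.4 and 78.0 CPM in aged Treg, against 838 and 3375 CPM in aged Tconv. The log2 fold change was -4.87 (edgeR adjusted p 0.0648, SE 0.94), just outside the threshold, and DESeq2 and limma each called it (adjusted p 2.04e-08 and 0.0308). Spp1 was at 1.40 and 37.5 CPM in aged Treg, against 47.9 and 171 CPM in aged Tconv, again without overlap (log2 fold change -2.50, edgeR adjusted p 0.333, SE 1.28). The other 3 members overlapped between aged Treg and aged Tconv. Of all genes tested, 18.5% lay wholly below in aged Treg and 0.821% were called by edgeR. It called 0 of the 5 and, at an unadjusted p under 0.05, gave 1 member and 1797 genes. Without aged Treg 2, Spp1 was called at a log2 fold change of -6.28 (edgeR adjusted p 0.0483), beside 3.68% of all genes, and Cxcl10 and Areg turned to -0.74 and -1.11. Without aged Tconv 1, Ccl5 was called at -5.54 (edgeR adjusted p 0.0273), beside 3.34% of all genes. Without aged Treg 1, edgeR called 0 of the 5, with log2 fold changes of -4.75 for Ccl5 and -1.55 for Spp1.

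In young mice Cxcl10, Cxcl3 and Areg lay above in Treg, as did 24.4% of all genes tested, with log2 fold changes of 1.27, 2.08 and 1.69. Cxcl3 there rests on 15 counts in young Treg and 3 in young Tconv. Ccl5 and Spp1 overlapped. EdgeR called 0 of the 5, against 0.8% of all genes, with 0 members at an unadjusted p under 0.05, and DESeq2 and limma called 0 members. Without young Treg 2 and aged Treg 1, Areg was called at 2.10 (edgeR adjusted p 0.0423), beside 2.2% of all genes. In the libraries labelled Dcaf1-deficient, Cxcl10 lay above in Treg (log2 fold change 1.09, SE 0.58), Areg lay above (0.99, SE 0.77) and Ccl5 lay below (-1.77, SE 0.83). Their edgeR adjusted p were 0.273, 0.432 and 0.227, and 2.22% of all genes were called, while 39.5% lay wholly above and 37.5% wholly below. EdgeR there called 0 of the 5, with 0 at an unadjusted p under 0.05 and 0 by DESeq2 and limma. In a fit of those 4 libraries alone, edgeR called Cxcl10, Ccl5 and Areg, at log2 fold changes of 1.08, -1.79 and 0.98. That fit called 51.8% of all genes it tested, and macrophage markers summed to 9393 and 11211 CPM in its Treg libraries, against 792 and 838 CPM in its Tconv libraries. Their part in these calls was not tested.

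Receptors of the factors were examined next, since a secreted factor acts where its receptor is present. Of 11 receptor genes, 8 were in the table and tested. In aged against young Tconv edgeR called 0 higher and 1 lower, against 6.38% and 2.47% of all genes tested. At an unadjusted p under 0.05 it gave 4, against 2670 of the 9495 genes tested. Of the 8, 5 had a log2 fold change above 0 and 3 below. Itgb3, a subunit of an integrin that binds osteopontin, fell to 90.3 and 24.7 CPM in aged Tconv, against 242 and 243 CPM in young Tconv (log2 fold change -2.08, edgeR adjusted p 0.0397, SE 0.47). Itgav, another integrin gene of the list, named after its values were seen, lay higher without a call. It was at 94.7 and 291 CPM in aged Tconv, against 49.2 and 51.2 CPM in young Tconv (log2 fold change 1.94, edgeR adjusted p 0.0578, SE 0.52). The median log2 fold change of the 8 receptor genes was 0.15, against -0.0017 over all genes tested.

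Cxcr3, the receptor of Cxcl10, was at 181 and 136 CPM in aged Tconv, against 61.0 and 60.4 CPM in young Tconv, without overlap (log2 fold change 1.38, edgeR adjusted p 0.0836, SE 0.43). In Treg it was at 99.3 and 315 CPM in aged, against 43.7 and 44.9 CPM in young libraries (log2 fold change 2.23, edgeR adjusted p 0.126, SE 0.45). Cd44, which binds osteopontin and is high on antigen-experienced T cells, was at 414 and 376 CPM in aged Treg, against 183 and 283 CPM in young Treg. Its aged libraries lay above the young ones, as its labelled libraries did at 461 and 529 CPM, and neither difference was called (edgeR adjusted p 0.174 and 0.131). Cxcr2, the receptor of Cxcl3, stood between 13.7 and 32.1 CPM in all 12 libraries, and Egfr, the receptor of amphiregulin, between 0.822 and 5.22 CPM. In each of the other 9 comparisons edgeR called 0 of the 8 receptors. At an unadjusted p under 0.05 it gave 0 to 5, against 260 to 2359 of the 9495 genes tested.

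**Figure D4:**
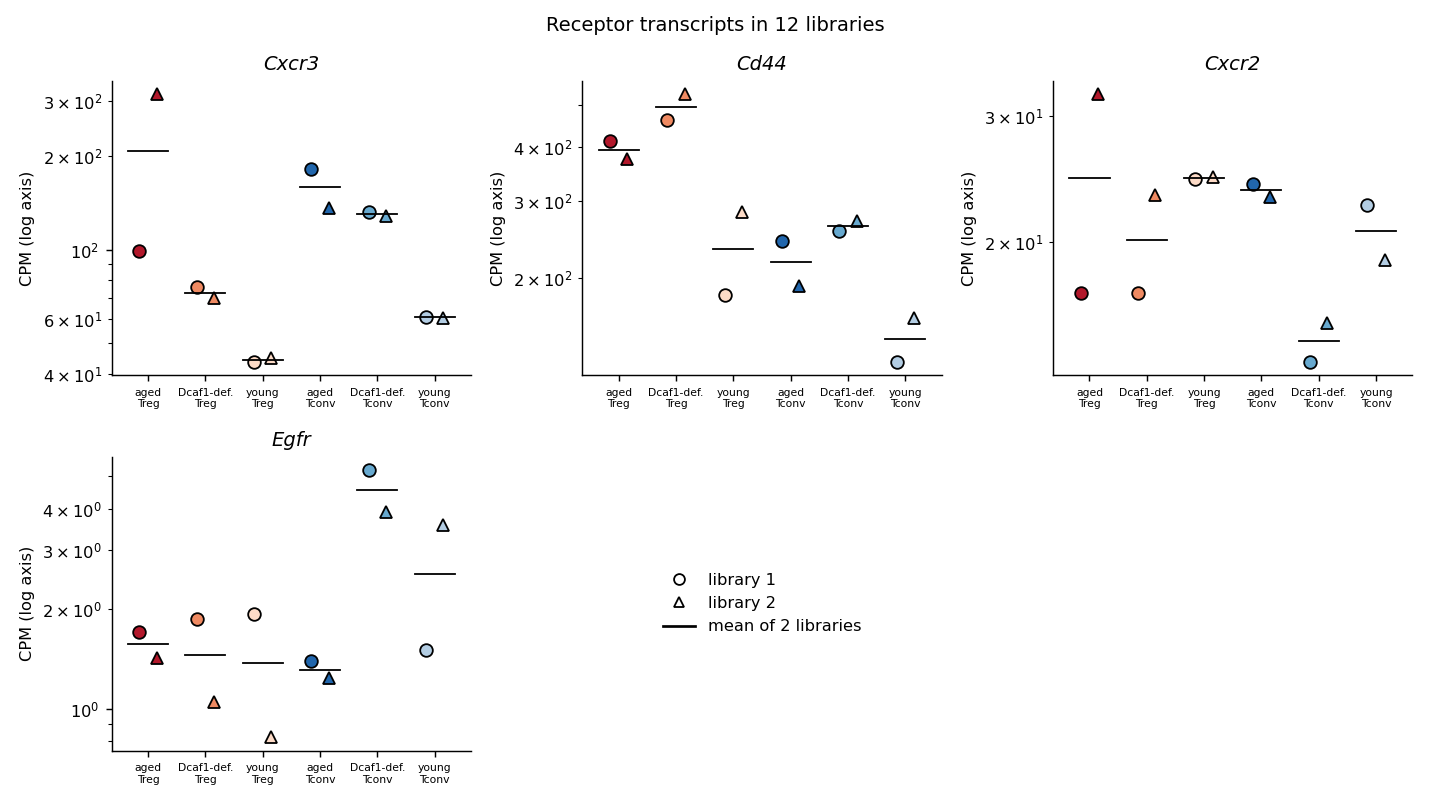
Level of 4 receptors of the secreted factors in the 12 libraries, in CPM on a log axis whose range differs between panels; circles and triangles are libraries 1 and 2 and the bar is their mean. Cxcr3 lies above young Tconv in aged Tconv, at 181 and 136 CPM against 61.0 and 60.4 CPM, whereas Cxcr2 stays between 13.7 and 32.1 CPM.

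A wider list of 45 secreted senescence factors, which includes the 5, was read beside them, and 33 were tested. With age in Tconv their median log2 fold change was 1.66, with the members included. Of the 33, 23 had a log2 fold change above 0 and 10 below. EdgeR called 1 lower and 9 higher, against 2.47% and 6.38% of all genes, and 5 of the 9 were the members already given above. Beside the 5 members these were, the last 2 of them named after their values were seen, the colony-stimulating factor Csf1 (4.98, edgeR adjusted p 0.0242, SE 0.91), the cytokine Lif (4.46, edgeR adjusted p 0.0240, SE 0.81), the protease inhibitor Timp2 (1.66, edgeR adjusted p 0.0371, SE 0.37) and the cytokine Tnf (0.78, edgeR adjusted p 0.0456, SE 0.19). Igfbp6, a binding protein of insulin-like growth factors also named after its values were seen, fell by 4.05 (edgeR adjusted p 0.0442, SE 0.97). In the comparisons of aged Treg, labelled Treg and labelled Tconv with young libraries the medians were 1.01, 0.95 and 0.84, with 28, 25 and 27 of 33 above 0. EdgeR called 0 of the list in each. At an unadjusted p under 0.05 it gave 5, 4 and 4, against 1697, 2359 and 954 of the 9495 genes tested. Medians over all genes lay between -0.01 and 0.02 in these comparisons. Macrophage markers summed to 9393 and 11211 CPM in labelled Treg, against 110 and 3106 CPM in young Treg. In labelled Tconv they summed to 792 and 838 CPM, against 17.4 and 210 CPM in young Tconv. The part of macrophage transcripts in the medians of the list was not tested. Of all 10 comparisons, 1 more gave a call in this list: Igfbp7 was higher in Treg than in Tconv of the labelled libraries (log2 fold change 2.96, edgeR adjusted p 0.0383).

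Close relatives gave few calls beside the members themselves. In aged Tconv edgeR called 1 of 3 interferon-induced chemokines, 1 of 12 CC chemokines, 1 of 5 neutrophil-attracting CXC chemokines and 1 of 3 Egfr ligands that were tested, in each case the member. Over all genes tested 6.38% were called higher. At an unadjusted p under 0.05 edgeR gave 1, 2, 4 and 2 genes of these lists, in the same order and with the members included. Over all genes it gave 2670 of the 9495 tested. The median log2 fold changes were 1.13, 0.28, 7.56 and -0.62. The relatives that follow were picked after their values were seen. Cxcl2, a neighbour and relative of Cxcl3, was at 7.72 and 254 CPM in aged Tconv, against 0.0939 and 1.32 CPM in young Tconv, and at 7.46 and 72.3 CPM in aged Treg, against 6.498 and 4.59 CPM in young Treg. As for Cxcl3, the second aged library carried the excess, and in Tconv the log2 fold change was 7.56 (edgeR adjusted p 0.0546, SE 1.99). Ccl4, a related CC chemokine, was at 56.7 and 237 CPM in aged Tconv, against 4.41 and 13.3 CPM in young Tconv (log2 fold change 4.06, edgeR adjusted p 0.0694, SE 1.17). Cxcl9, the interferon-induced neighbour of Cxcl10 that shares Cxcr3, stood at 1.22 and 1.90 CPM in aged Tconv, against 1.13 and 2.64 CPM in young Tconv. It thus overlapped where Cxcl10 rose. In Treg, Cxcl9 was at 28.2 and 38.3 CPM in aged and 31.8 and 35.8 CPM in labelled libraries, against 1.84 and 9.87 CPM in young Treg, with edgeR adjusted p of 0.171 and 0.137.

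Genes known to control the members were called in 6 of 28 cases in aged against young Tconv, or 21.4%, against 8.86% of all genes tested. These calls went in both directions. The 4 lists held 11, 12, 13 and 4 genes, of which 8, 9, 7 and 4 were tested. They were chosen with earlier results of these data known, so the share is a description only. Of 8 tested NF-kB pathway genes, Bcl3, a nuclear cofactor of NF-kB, rose in aged Tconv (log2 fold change 1.71, edgeR adjusted p 0.0126, SE 0.21), and the list's median was 0.48. Of 9 tested interferon regulators, 1 was called, the interferon-gamma receptor chain Ifngr2, which fell by 1.46 (edgeR adjusted p 0.0364, SE 0.32), and the median was -0.08. Of 7 tested AP-1 and C/EBP family genes, Batf and Maf rose in aged Tconv by 2.57 (SE 0.45) and 3.21 (SE 0.38), with edgeR adjusted p of 0.0231 and 0.0126. Of 4 regulators tied to Ccl5 in T cells, Eomes, a T-box factor of cytotoxic and memory T cells, rose by 4.32 (edgeR adjusted p 0.0123, SE 0.43) and Klf13, which drives late Ccl5 transcription in activated T cells, fell by 1.02 (edgeR adjusted p 0.0423, SE 0.24). Eomes was at 14.8 and 24.2 CPM in aged Treg, against 199 and 445 CPM in aged Tconv, and was called lower in aged Treg (log2 fold change -4.05, edgeR adjusted p 0.00906, SE 0.42). Of 8 tested genes of growth arrest in senescence, Cdkn1a and Cdkn2c, which block cyclin-dependent kinases, rose in aged Tconv by 3.83 (SE 0.90) and 2.37 (SE 0.51), with edgeR adjusted p of 0.0419 and 0.0337. The deacetylase Sirt1 fell by 0.65 (edgeR adjusted p 0.0371, SE 0.15). Of 5 tested proteases that process these factors, edgeR called 0 in each of the 10 comparisons. At an unadjusted p under 0.05 it gave 0 to 2, against 260 to 2670 of the 9495 genes tested.

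Since 3 members lie close together on chromosome 5, the genes around them were read for comparison. The start of Areg lies 353496 bp from that of Cxcl3, and the start of Cxcl10 lies 1207039 bp from that of Areg. From 200 kb before Cxcl3 to 200 kb after Cxcl10 the annotation has 28 protein-coding genes, of which 22 were tested. In aged Tconv edgeR called 5 of these 22 higher, namely the 3 members, Rassf6 (log2 fold change 6.27, edgeR adjusted p 0.0323, SE 1.32) and Cdkl2 (2.01, edgeR adjusted p 0.0470, SE 0.50), the last 2 of which were singled out after their values were seen. Over all genes tested 6.38% were called higher. The 19 genes that are not members had a median log2 fold change of 0.04, with 10 above 0, and edgeR called 2 of them. In aged Treg the 19 had a median of 0.19, and edgeR called 0 of the 22. At an unadjusted p under 0.05 it gave 5, against 1697 of the 9495 genes tested.

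**Figure D5:**
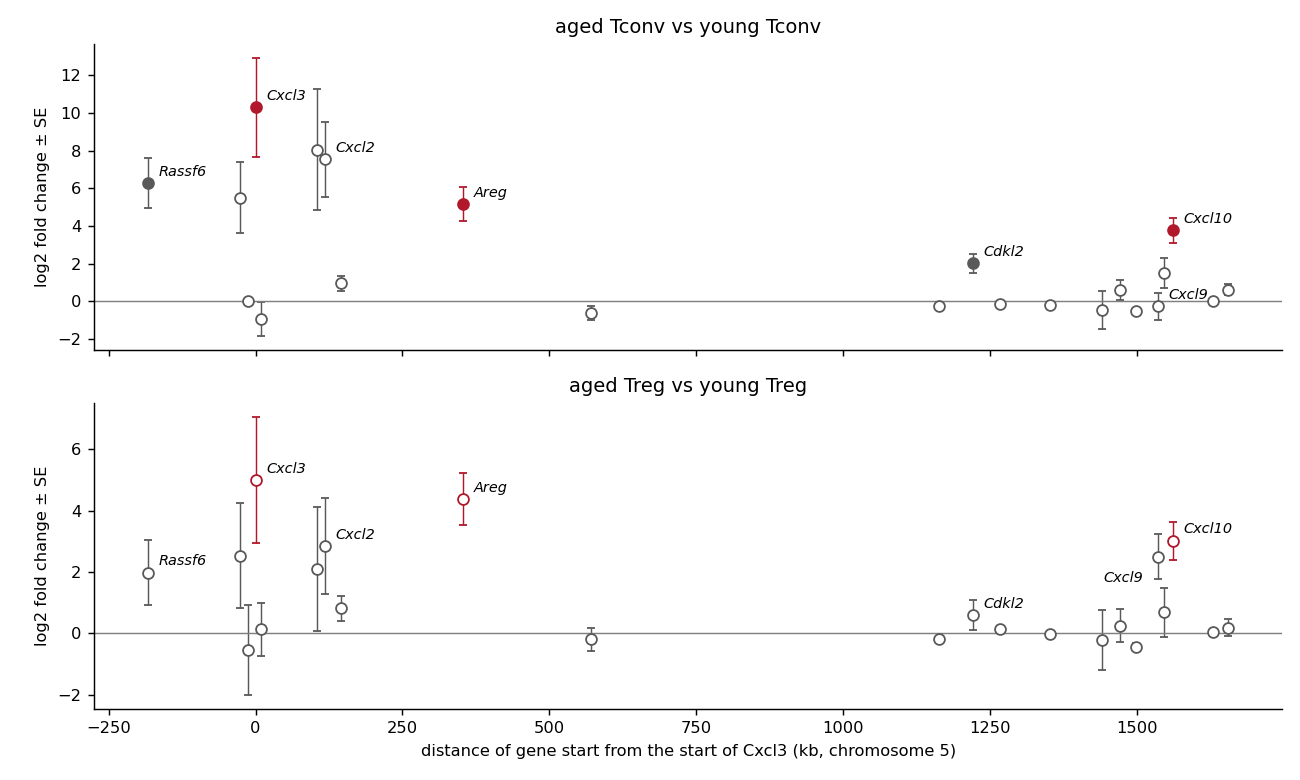
Log2 fold change with its standard error of the tested genes around Cxcl3, Areg and Cxcl10, by distance of the gene start from that of Cxcl3 in kb, for aged against young Tconv (top) and aged against young Treg (bottom). Members are red, filled points passed the edgeR threshold, and 5 points are filled in Tconv and 0 in Treg.

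Genes whose log2 CPM ran most like each member were named among 7502 genes by Pearson's r over the 12 libraries. These libraries share ages, sorts and depth, so r is a description only. The nearest to Cxcl10 were Cd82 (0.980), a membrane tetraspanin, Srxn1 (0.979), the peroxiredoxin-repairing sulfiredoxin, and Vmp1 (0.970), an autophagy gene. The nearest to Ccl5 were the chemokine gene Ccl4 (0.974), the kinesin gene Kif1c (0.952) and the early response gene Ier3 (0.950). Spp1 ran with Hspa5 (0.976), the main chaperone of the endoplasmic reticulum, with Myh3 (0.973), an embryonic myosin heavy chain, and with Rnf128 (0.971), a ubiquitin ligase of anergic T cells. The nearest to Cxcl3 were Hif1a (0.986), the oxygen-sensing transcription factor, Hc (0.979), complement component C5, and Tmem45a (0.979). The nearest to Areg were Chst2 (0.987), a sulfotransferase gene, Ttn (0.987), the titin gene, and Apol10b (0.985).

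The levels of these genes show what such likeness rests on. Hif1a was at 705.9 and 2554 CPM in aged Tconv, against 220 and 192 CPM in young Tconv, and at 340 and 996 CPM in aged Treg, against 377 and 249 CPM in young Treg, so that the L3 libraries were the highest, as for Cxcl3. Srxn1 was at 16.8 and 48.9 CPM in aged Treg and 18.5 and 16.5 CPM in labelled Treg, against 1.88 and 5.24 CPM in young Treg, so that its group means in Treg stood in the same order as those of Cxcl10. Among the members themselves r was highest between Cxcl10 and Areg (0.946, or 0.892 over the 10 libraries without the tag L3) and between Spp1 and Cxcl3 (0.922, or 0.791). The 4 pairs with Ccl5 had the lowest r over the 12 libraries, from 0.458 with Areg to 0.720 with Spp1.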

How the data were processed

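Gene expression was measured in 12 RNA sequencing libraries. Estimated counts were deposited for each gene. Salmon 0.9.1 and mm10 are named in the submitters' processing notes, and Salmon output per the file headers; the transcript annotation is not given in the sources used here. The authors also deposited log2 values, with DESeq2 named in the same notes. The counts were rounded and tested with the edgeR 4.0.16 quasi-likelihood test in R 4.3.3, with TMM scaling, filterByExpr and 1 fit of 6 group means (6 residual degrees of freedom). Benjamini-Hochberg adjustment was over 9495 genes in each of the 10 comparisons, at a threshold of 0.05. The standard errors are those of that fit, and log2 CPM used a prior count of 2. Counting intervals and the floor of 3 counts per group cover counting error only. The procedure was also run on simulated counts with changes planted in aged Tconv only. These held no differences in cell make-up, sex or tag between libraries, so they cannot show how such differences move the calls. Alternatives were RLE size factors, no filter, DESeq2 1.42.0, limma 3.58.1 on the log2 values, other sets of libraries, a replicate block and a term for the tag; a term for Xist and the omission of pairs of libraries were chosen after seeing the data. The members, the gene lists and the tests were chosen with earlier results of these data known. Beside the members, the text names 3 genes per member by likeness (mean of at least 4 CPM), up to 4 called genes per list and comparison by smallest adjusted p, 4 receptors and fixed marker genes; other genes are said to be picked after seeing their values. Of the columns of the tables, 0 were left unused. A receptor that the rule also named is not reported here.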

Additional observations from a re-analysis of the deposited data

How the results depend on the processing

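The direction of all 5 members in aged against young Tconv held under each of the 13 alternatives, but the calls did not. EdgeR called 5 members there; leaving out 1 library gave 0 to 5, a term for the tag 3 and a term for Xist 3. In aged against young Treg, where edgeR called 0, DESeq2 called 4, leaving out 1 library gave 0 to 3, and omission of young Treg 2 with aged Treg 1 gave 2. The same omission leaves 1 library each in young and aged Treg. It also raised the calls among the members and over all genes in labelled against young Treg and in labelled against aged Treg. It did so too in young Treg against young Tconv and in aged Treg against aged Tconv. In labelled against aged Treg, DESeq2 called 3 and leaving out 1 library gave 0 to 3. In aged Treg against aged Tconv, DESeq2 called 1, limma 1, the fit without the L3 libraries 1, and leaving out 1 library gave 0 to 1. DESeq2 called 1 for the difference in age effects. Over all genes DESeq2 called 7.6% in aged against young Treg and 0.685% in labelled against aged Treg. It called 10.2% in aged Treg against aged Tconv and 1.41% for the difference in age effects. In aged against young Tconv the tag term called 4.6% of all genes and the Xist term 3.19%. A fit of the labelled libraries alone called 3 in Treg against Tconv. The cause of these changes was not tested.

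Log2 fold changes that changed sign were all uncalled. For Ccl5 in labelled against aged Treg (-0.01) they were 0.0060 with RLE, 0.0014 without the filter, 0.0060 with DESeq2, 0.0045 with limma, 0.48 with the tag term, 0.10 without the L3 libraries, and -0.13 to 0.10 with 1 library left out. Limma gave 0.080 for Spp1 in young Treg against young Tconv (-0.05) and 0.064 for Cxcl10 in the difference of label effects (-0.18). The tag term gave -0.036 for Cxcl3 in labelled Treg against labelled Tconv (0.25), at 6 and 4 counts. In the difference of label effects it gave 0.15 for Cxcl10 and 0.00080 for Areg (-0.70). Without the L3 libraries, Cxcl10 (0.52) and Areg (0.90) in aged Treg against aged Tconv gave -0.43 and -0.98. Without young Treg 2 and aged Treg 1, Spp1 in young Treg against young Tconv gave 0.24, Cxcl10 in the difference of age effects (-0.75) gave 0.51, and Cxcl10 and Ccl5 (-0.54) in the difference of label effects gave 0.45 and 1.26. With the Xist term, Spp1 gave -0.46 in labelled against young Treg (0.56), -1.503 in labelled against young Tconv (0.84), 0.99 in labelled Treg against labelled Tconv (-0.32) and 1.04 in the difference of label effects (-0.27). With the same term Cxcl3 gave -4.66 in labelled against young Tconv (0.32), and Cxcl10 gave 0.31 in the difference of label effects. With 1 library left out, the ranges were -0.80 to 1.89 for Spp1 in young Treg against young Tconv, and -0.74 to 1.18, -7.24 to 1.65 and -1.11 to 1.71 for Cxcl10, Cxcl3 and Areg in aged Treg against aged Tconv. They were -0.44 to 1.23 for Cxcl3 in labelled Treg against labelled Tconv, -0.60 to 0.97 for Cxcl3 in labelled against young Tconv, and -2.80 to 0.022 for Areg in the difference of age effects. In the difference of label effects they were -0.61 to 0.43 for Cxcl10, -1.32 to 1.25 for Ccl5 and -2.15 to 0.53 for Spp1.

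With the replicate number as a block, edgeR called 4 members and 846 genes in aged against young Tconv, and Cxcl3 (9.46) had an adjusted p of 0.0526. In the other comparisons the block called 0 members, and it called 40 genes in young, 50 in aged and 163 in labelled Treg against Tconv. Deviations of libraries with the same number correlated between -0.66 and 0.68, so the number is not taken to pair them, and the crossed pairing in aged against young Treg called 0 members and 0 genes.

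Over all genes, the number called by edgeR was 841 in aged against young Tconv (0 to 2340 over the alternatives), 76 in young Treg against young Tconv (0 to 663), 78 in aged Treg against aged Tconv (0 to 971) and 211 in labelled Treg against labelled Tconv (2 to 4712). It was 0 in aged against young Treg (0 to 722), in labelled against young Treg (0 to 2219), in labelled against young Tconv (0 to 232), in labelled against aged Treg (0 to 1693), in the difference of age effects (0 to 134) and in that of label effects (0 to 10). With 2 libraries a group, 1 library can decide a call, and at 3 to 15 counts a group the levels of Cxcl3 outside aged mice carry wide counting error.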
